A study of Mus musculus with 16 samples.

Results

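Promoters that carried H3K27me3 with little H3K4me3 in WT haploid spermatids are described here. A promoter is the window of 1 kb on either side of an autosomal protein-coding gene start (GENCODE vM21, mm10). In each window, distinct AutoCUT&RUN fragments with their midpoint inside were counted after pooling both WT libraries of a mark, and the count was divided by the number expected if all fragments of chromosomes 1 to 19 lay evenly along them. This quotient is the fold. A promoter was a member when its WT H3K27me3 fold was at least 5 and its WT H3K4me3 fold was under 3. The rule took 3727 of 20807 gene starts, with 3725 gene symbols. Another 1505 starts met the H3K27me3 threshold with an H3K4me3 fold of at least 3 (promoters with both marks), 9384 had only H3K4me3 at that level, and 6191 had neither. The members were selected on WT H3K27me3 and H3K4me3, so the levels of these marks in WT are a description. The KO libraries, the H3K9me3 and IgG libraries, fragment lengths, and DNA sequence were not used by the rule.

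H3K27me3 is written by the methyltransferase of Polycomb repressive complex 2 and read by Polycomb repressive complex 1, and it marks genes that are kept silent in a lineage. H3K4me3 marks the starts of active or poised genes. In male germ cells, both marks are known to sit together at many developmental genes, and these promoters are called bivalent. The members are the promoters where only the Polycomb mark was at the chosen level. H3K9me3 marks constitutive heterochromatin and repeats. H2A.B is a short histone H2A variant of testis whose nucleosomes are known to wrap less DNA than canonical ones.

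The cells were haploid spermatids, sorted from testis by DNA content with Hoechst dye, of 2 pairs of 2-month-old, non-mated male siblings. Each pair held 1 WT male and 1 H2A.B KO male with mutations in all 3 X-linked H2A.B genes (H2afb1, H2afb2, and H2afb3). The KO animals came from 1 mutant strain crossed back to C57BL/6J. Each animal gave 1 library for H3K4me3, H3K27me3, H3K9me3, and IgG, so there were 16 libraries with 2 per target and genotype. Replicate 1 and replicate 2 are taken as the sibling pairs, which the paper used for replicate experiments and the sample titles do not name. All replicate 1 titles share number codes that differ from those of all replicate 2 titles. Sibling pair therefore cannot be told apart from whatever those codes stand for. Between 0 and 10 distinct fragments per library overlapped the 3 H2A.B genes, too few to check the genotype. At the starts of 19 spermatid marker genes on autosomes, 16 were in the H3K4me3-only group, 2 had both marks, 1 (Prm1) had neither, and none was a member.

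Depth differed among libraries. Distinct fragments ranged from 159611 to 6746382 per library, and the H3K27me3 libraries held 3806026 (KO replicate 1), 711758 (KO replicate 2), 2891646 (WT replicate 1), and 200457 (WT replicate 2). Replicate 1 gave 93.6% of the pooled WT H3K27me3 fragments on which the rule rests and 84.6% of the pooled KO ones. In WT replicate 2, only 0.160 H3K27me3 fragments were expected per window, and 438 of 3727 members held none. A single fragment there gives a fold of 6.27, so any fragment met the H3K27me3 threshold, as at 28.6% of all windows. With that limit, the rule applied to WT replicate 2 alone took 3857 promoters, of which 3206 were members. Applied to WT replicate 1 alone, it took 3367, of which 3201 were members. A set of 1179 bins of 1 kb with an IgG fold of at least 50, defined after seeing the data, held 12.6% to 29.0% of autosomal IgG fragments, 19.9% to 25.5% of H3K9me3, and 1.51% to 8.46% of H3K27me3. Only 2 member windows touched such a bin (Kcnk15 and Enpep), against 15 of the 1505 windows with both marks.

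To show what DNA lies before these starts, the 200 bases upstream of 4 members are printed from the mm10 reference, 5′ to 3′ on the strand of the gene. They are the most strongly marked Hox gene, developmental ligand, and chemosensory receptor with an upstream stretch free of annotated exons, and 1 of the 5 members with the lowest KO level. CG dinucleotides are in capitals. They lie at chr2:74674813-74675012, plus strand (Hoxd12), chr4:9844172-9844371, plus strand (Gdf6), chr7:107954443-107954642, plus strand (Olfr474), and chr2:175801094-175801293, minus strand (Gm14288).
Hoxd12: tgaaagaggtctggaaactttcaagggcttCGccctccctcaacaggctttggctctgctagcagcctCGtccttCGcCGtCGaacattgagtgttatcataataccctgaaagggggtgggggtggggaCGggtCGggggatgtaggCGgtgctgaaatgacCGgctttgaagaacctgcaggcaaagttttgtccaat
Gdf6: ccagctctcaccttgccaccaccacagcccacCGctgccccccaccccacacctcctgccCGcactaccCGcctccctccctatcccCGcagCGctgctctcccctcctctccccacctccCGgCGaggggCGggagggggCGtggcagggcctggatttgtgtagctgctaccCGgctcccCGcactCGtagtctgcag
Olfr474: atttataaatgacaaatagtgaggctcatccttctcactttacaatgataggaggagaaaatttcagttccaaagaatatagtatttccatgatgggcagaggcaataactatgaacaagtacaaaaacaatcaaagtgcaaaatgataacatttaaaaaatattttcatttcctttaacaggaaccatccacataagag
Gm14288: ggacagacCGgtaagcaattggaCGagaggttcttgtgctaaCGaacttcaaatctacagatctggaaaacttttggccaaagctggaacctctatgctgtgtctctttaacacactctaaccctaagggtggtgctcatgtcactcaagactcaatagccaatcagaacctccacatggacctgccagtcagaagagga

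These stretches held 9, 12, 0, and 3 CG dinucleotides in the order printed, so the upstream DNA of members ranged from CG-free to CG-rich. The median member had 8 CG in the 200 bases before its start, against 12 for promoters with both marks, 13 for promoters with H3K4me3 only, 1 for promoters with neither, and 7 over all starts. At least 1 CG was present upstream of 97.8% of members and 90.6% of all starts. Over the 2-kb window, the ratio of observed to expected CG had a median of 0.49 at members, 0.61 at promoters with both marks, 0.63 at promoters with H3K4me3 only, and 0.16 at promoters with neither. A window with a ratio of at least 0.6 and a GC content of at least 50%, as in CpG islands, was found at 1042 members (28.0%), at 48.6% of promoters with both marks, and at 30.9% of all starts. The member genes spanned a median of 27.5 kb (interquartile range 9.50 to 89.5), against 17.6 kb for all genes. Members made up between 13.2% of the starts on chromosome 7 and 26.7% of those on chromosome 18, against 17.9% of all starts.

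**Figure D1:**
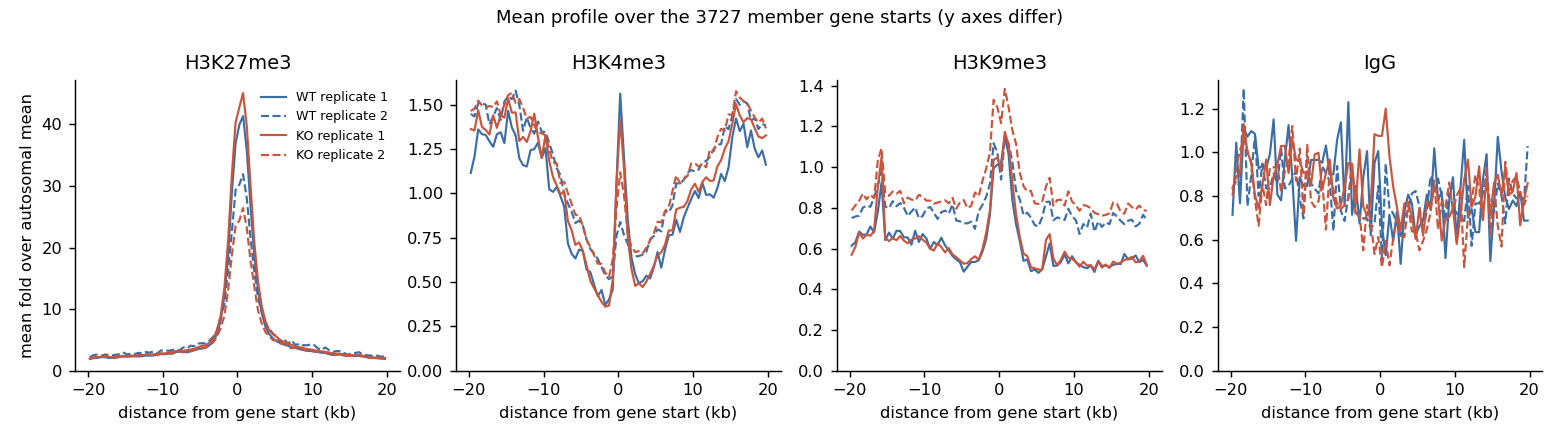
Mean fold over the autosomal mean in 500-bp bins within 20 kb of the 3727 member starts, oriented along the gene (downstream to the right), for each of the 16 libraries and without the 1179 high-background bins. H3K27me3 peaks just downstream of the start in all 4 libraries, to between 26.4 and 45.1, whereas H3K4me3, H3K9me3, and IgG reach at most 1.58.

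H3K27me3 at the members was highest downstream of the start. In the bin 500 to 1000 bp downstream, the mean fold was 45.1 in KO replicate 1, 26.4 in KO replicate 2, 41.4 in WT replicate 1, and 31.9 in WT replicate 2. In the bin farthest upstream, up to 20 kb from the start, it was between 1.92 and 2.25 in the 4 libraries. The H3K4me3 profile was between 0.37 and 0.53 in the bin that begins 1000 bp upstream, below its level of 1.12 to 1.46 in the farthest upstream bin. In the first bin downstream it was 1.42 and 1.12 in KO and 1.56 and 0.84 in WT. H3K9me3 was between 1.14 and 1.38 in the bin where H3K27me3 peaked, over 0.57 to 0.79 in the farthest upstream bin, and IgG in these bins was 0.53 to 1.199 and 0.71 to 0.84.

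Over the sum of all member windows, with the high-background bins left out, the H3K27me3 fold was 39.9 in KO replicate 1, 23.2 in KO replicate 2, 36.7 in WT replicate 1, and 28.4 in WT replicate 2. The 2 genotypes overlapped, and KO was above WT in pair 1 and below it in pair 2. The H3K4me3 fold was 1.03 and 0.91 in KO and 1.07 and 0.72 in WT, close to the autosomal mean. The H3K9me3 fold was 1.06 and 1.31 in KO and 1.05 and 1.07 in WT. The IgG fold, the background measured in the same animals, was 1.11 and 0.56 in KO and 0.79 and 0.75 in WT. With those bins kept, the IgG fold at members was 0.64 ± 0.13 (SD, n = 4 libraries), and the 95% Poisson intervals of single libraries, which cover counting error only, lay between 0.44 and 0.89. Also with those bins kept, the H3K4me3 fold at members was 1 and 0.90 in KO and 1.05 and 0.71 in WT. Promoters with neither mark had 0.39 and 0.58 in KO and 0.36 and 0.50 in WT. The members were thus above that class in all 4 libraries, though near the autosomal mean.

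**Figure D2:**
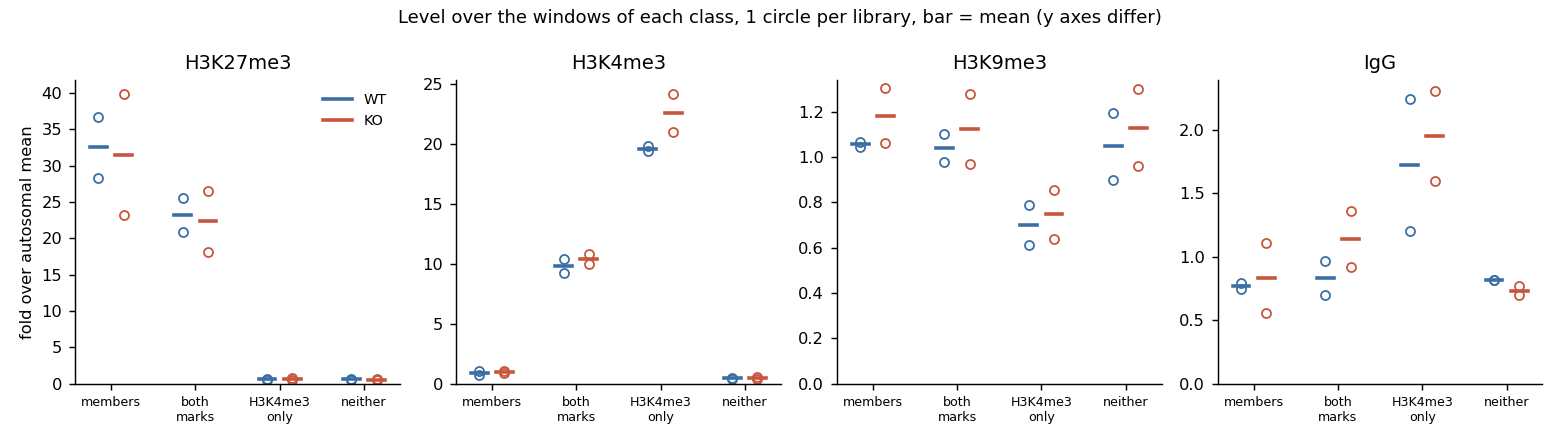
Fold over the autosomal mean in the pooled windows of each promoter class, with 1 circle per library and a bar at the mean of 2 (WT blue, KO red), without the high-background bins. In the H3K27me3 panel, the members lie between 23.2 and 39.9 and the promoters with both marks between 18.2 and 26.5, and WT H3K27me3 and H3K4me3 defined the classes.

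In KO, which the rule did not use, 3600 members (96.6%) had a pooled H3K27me3 fold of at least 5, whereas 24.6% of all windows and 93.8% of the promoters with both marks did. An H3K4me3 fold under 3 was found at 3514 members (94.3%), against 47.5% of all windows. Both were met by 3391 members (91.0%), against 17.5% of all windows and 200 of the 1505 promoters with both marks in WT. The share differed between replicates. In KO replicate 1 alone, 3632 members (97.5%) had an H3K27me3 fold of at least 5, against 24.9% of all windows and 94.6% of the promoters with both marks. In KO replicate 2 alone, 3210 members (86.1%) did, against 22.4% and 79.2%. With the rule and the check both run on replicate 2 only, the share meeting both thresholds was 74.4%. Over all windows that share can be at most the 22.4% that met the H3K27me3 threshold there. A single WT fragment met the H3K27me3 threshold of the rule in that check. The 127 members under the H3K27me3 threshold in KO lay near it in WT, with a median WT fold of 6.43 and a highest of 13.3. The 213 members whose KO H3K4me3 fold was 3 or more had a median of 3.57 and a highest of 8.24 there. Among the 3727 members, the WT and KO pooled H3K27me3 folds correlated across promoters with Spearman's rho of 0.971, which describes promoters of the same 4 libraries and is not a test across animals.

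The members just inside the H3K27me3 threshold, 9230112D13Rik, Abhd12b, and Acot6, had a WT fold of 5.23, and the promoters just outside, 1810010D01Rik, Acbd7, and Akp3, had 4.82. At the H3K4me3 threshold, 6030445D17Rik, Acat3, and Ache were inside with 2.68, and 2810459M11Rik, 9030624G23Rik, and Adamtsl3 were outside with 3.13. These steps are single fragments, since 2.49 H3K27me3 and 2.24 H3K4me3 fragments were expected per window in the pooled WT libraries.

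H3K27me3 stood above H3K4me3 in the KO libraries at nearly all members. With every window fitted and no filter on low counts, 3553 of the 3727 members had more H3K27me3 than H3K4me3 (limma-voom, Benjamini-Hochberg adjusted p under 0.05), where 21.5% of all windows did (and 44.5% had less), and no member had less. With the minimum of 10 fragments over the KO libraries, 3567 of the 3720 members that met it passed and none had less. Of the 16065 windows tested, 27.7% had more, 57.7% had less, and 85.4% passed in either direction, and the median difference was 5.01 on the log2 scale at members and -3.46 over all windows. Members could reach that minimum through H3K27me3 alone, so the second count is given only as a description. After quantile normalization, 3606 members passed, the median over all windows was -0.93, and the split of all calls was 5111 higher and 6345 lower in place of 4455 and 9269.

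Among the members that the filtered fit ranked first were the transcription factor genes Hoxd12 and Pax3, which had no H3K4me3 fragment in KO and met the filter without that mark, so their values are given as a description. At Hoxd12 (start chr2:74675013, plus strand), a factor of limb and genital patterning, the H3K27me3 fold was 90.6 and 97.0 in KO and 70.9 and 144 in WT, whereas H3K4me3 was listed at no fragment in both KO libraries and was 3.47 and 0 in WT. Pax3, a regulator of neural crest and muscle precursors, had H3K27me3 folds of 95.8 and 89.8 in KO and 69.6 and 100.3 in WT and no H3K4me3 fragment in any of the 4 libraries. At both genes, the KO and WT ranges of H3K27me3 overlapped.

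Against H3K9me3 in the same KO animals, 3674 of 3727 members had more H3K27me3 with no filter (limma-voom, adjusted p under 0.05), where 29.6% of all windows did, and 5 had less, where 2.76% of all windows did. With the filter, 3672 of 3720 had more (38.2% of windows, and 41.8% passed in either direction), and the median difference was 5.19 on the log2 scale at members and 1.82 over all windows. Members could meet the filter through H3K27me3 alone here too, so the filtered count and its medians are only a description. The filtered count also depends on the scaling. After quantile normalization it was 763, the median was 1.52 at members in place of 5.19 and 0.08 over all windows in place of 1.82, and the calls over all windows were split into 1496 higher and 2302 lower in place of 6133 and 583. The filtered fit ranked Smarca2, a chromatin remodeler ATPase, Prokr1, a prokineticin receptor, and Fbll1, a fibrillarin-like gene, first. None of the 3 had an H3K9me3 fragment in KO, so their rank depends on the prior count, and as H3K27me3 alone could meet the filter they are named as a description. Their H3K27me3 folds were 56.4 to 60.3 in KO replicate 1 and 18.0 to 28.7 in KO replicate 2.

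Only 5 members had significantly less H3K27me3 than H3K9me3 in KO, where 3.63% of all windows did. After quantile normalization, 31 members had less, where 2302 of 16065 windows did. Of the 5, 4 were genes of the zinc finger family cluster on distal chromosome 4. At Zfp978 (start chr4:147361303, plus strand), the H3K9me3 fold was 40.7 and 39.7 in KO and 38.9 and 48.6 in WT, and the H3K27me3 fold was 3.59 and 1.80 in KO and 8.59 and 12.5 in WT. The replicate 2 values of H3K27me3 rest on very few fragments. Since WT H3K27me3 also chose Zfp978, nothing is read from its lower KO values. The difference between its H3K27me3 and H3K9me3 was -3.57 ± 0.70 (SE) on the log2 scale (limma-voom, adjusted p = 1.7e-06) in the filtered fit, whose minimum H3K9me3 alone could meet. Rex2 and Zfp979 had H3K9me3 folds between 33.1 and 42.0 in the 4 libraries, and Zfp600 had 24.7 to 33.3. The fifth was Oasl1, an interferon-induced gene of the oligoadenylate synthetase-like family, with H3K9me3 folds of 35.4 and 47.5 in KO and 29.1 and 34.9 in WT. With all 4 libraries pooled, Zfp978, Rex2, and Zfp979 had the highest H3K9me3 of all members, and in the pooled KO libraries Oasl1 (40.9) and Zfp978 (40.2) did. Zinc finger genes of such clusters can resemble each other, so their values are uncertain, and how far fragments are shared among them was not tested.

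The members included many genes of body plan and lineage. Over all gene starts, 17.9% were members, against which the counts below can be read, and 1505 of 20807 had both marks. Of the 39 Hox genes, which pattern the body axis, 25 were members and 12 had both marks, and the KO H3K27me3 fold of the Hox members ran from 15.2 to 91.6 with a median of 69.2, against 34.5 over all members. The highest were Hoxd12 (91.6), Hoxa9 (89.4), and Hoxc6 (88.0), in pooled KO folds. Of 127 other homeobox genes, 86 were members with a median KO fold of 58.5, and Bsx (95.2) and Pax3 (94.9) were among the highest. T-box, Sox, Gata, and Fox factors, regulators of many lineages, held 40 members among 80, with a median of 59.6. Sox14, a factor of interneurons, had the highest fold among them (106), and Sox8 (83.0) and Tbx5 (77.5), a heart and forelimb factor, followed. Helix-loop-helix factors held 35 members among 60, with Olig2 (89.7), Myf5 (77.5), and Id3 (77.5) at the top. Both marks were found at 26 of the 127 other homeobox genes and at 23 of the 80 T-box, Sox, Gata, and Fox factors. They were also found at 16 of the 60 helix-loop-helix factors. Like the Hox genes, these families were frequent in that class too, so they are not particular to the members. The lists were set with earlier results of these data known, and no test was made on them.

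Secreted signals and adhesion genes were also frequent. Of 70 genes for Wnt, Fgf, Bmp, Gdf, and Hedgehog ligands, 41 were members, with a median KO fold of 40.6, and Wnt3 (88.3), Fgf15 (82.5), and Gdf6 (75.04) were highest. At Wnt3, a ligand of gastrulation, the H3K27me3 fold was 91.9 and 68.2 in KO and 74.7 and 75.2 in WT, and H3K4me3 was at or below 0.60 in all 4 libraries. Collagens and laminins, the proteins of the extracellular matrix, held 37 members among 53, the largest share of any gene family listed (69.8%), and all 37 met both thresholds in KO. Col2a1, the cartilage collagen, had H3K27me3 folds of 97.1 and 41.3 in KO and 88.5 and 68.95 in WT. Protocadherins, adhesion proteins of neurons, held 44 members among 67, with a lower median KO fold of 27.7. Both marks were found at 10 of the ligand genes, 4 of the collagen and laminin genes, and 15 of the protocadherins.

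Genes of excitable tissue followed. Ion channels held 91 members among 189, with Kcnj5 (87.5), Scn4b (77.8), and Kcnh8 (76.1) at the top. Receptors for transmitters and hormones held 75 members among 140, led by Galr1 (93.5), a galanin receptor, Npy1r (77.8), and Htr1b (76.4). Both marks were found at 26 of the channel genes and 9 of the receptor genes. Keratins and keratin-associated genes held 24 members among 102, and interleukins, chemokines, and their receptors held 23 among 111 (23.5% and 20.7%), near the 17.9% of all starts. In both of these lists, most of the other genes had neither mark (73 and 72).

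Other families were nearly absent. Of 1469 olfactory and vomeronasal receptor genes, 1430 had neither mark and 15 were members, with KO folds from 3.86 to 25.4. The highest, Olfr474, whose upstream DNA printed above holds no CG, had H3K27me3 folds of 28.0 and 10.8 in KO and 26.2 and 12.5 in WT. Of 69 ribosomal protein genes, 64 had H3K4me3 only and 1, Rpl3, was a member. The annotated start used for Rpl3 had a KO H3K27me3 fold of 17.1. Of 34 genes for Polycomb proteins and H3K27 demethylases, 24 had H3K4me3 only, among them the core subunits Ezh2, Eed, and Suz12, 5 had both marks, 3 had neither, and 2 were members. Among them was Phf19, an accessory subunit of Polycomb repressive complex 2, with a KO H3K27me3 fold of 41.7.

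**Figure D3:**
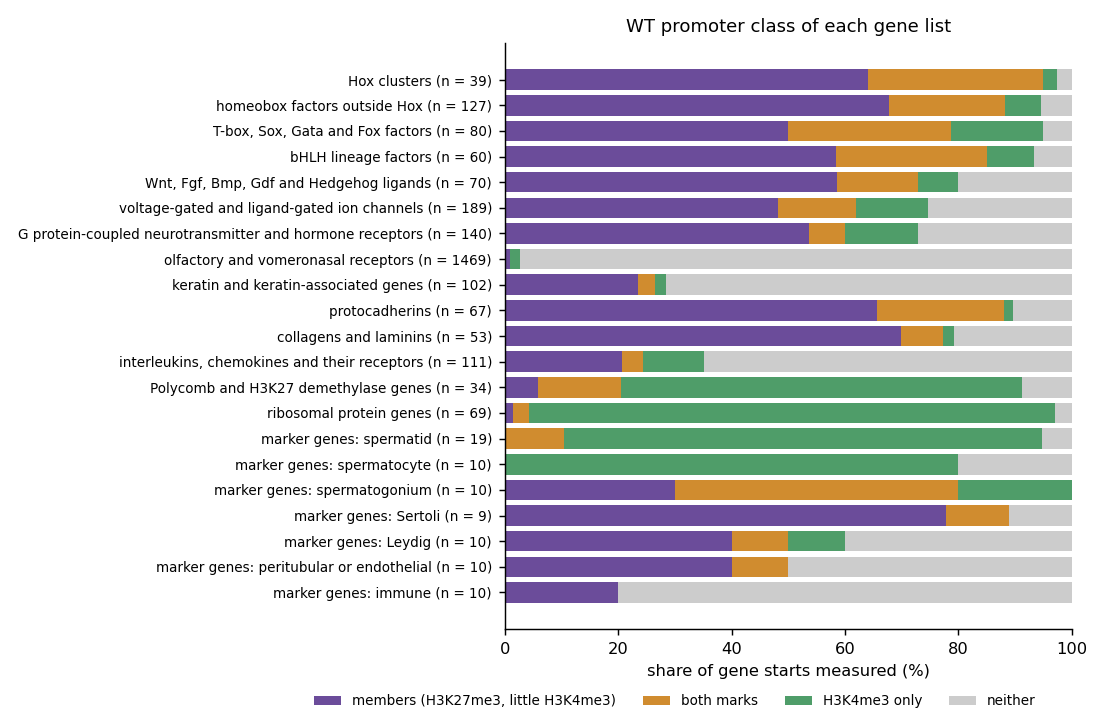
Share of the measured gene starts of each list in each of the 4 WT promoter classes, with n the number of starts. Collagens and laminins (69.8%) and homeobox factors outside Hox (67.7%) have the largest member shares among the gene families, and none of the spermatid or spermatocyte markers is a member.

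Markers of other testis cells were checked in the same way. Of 9 Sertoli cell markers, 7 were members (Aard, Cldn11, Clu, Fshr, Gata4, Sox9, and Wt1), 1 had both marks, and 1 had neither. At Sox9, a factor of Sertoli cell differentiation, the H3K27me3 fold was 83.8 and 32.3 in KO and 58.4 and 87.8 in WT, and H3K4me3 was between 0 and 1.204. Leydig cell markers held 4 members among 10 (Cyp11a1, Insl3, Lhcgr, and Nr5a1), peritubular or endothelial markers 4 among 10 (Acta2, Kdr, Myh11, and Tek), and immune markers 2 among 10 (Cd14 and Cd3e). Most of the other markers of these cells had neither mark (4 Leydig, 5 peritubular or endothelial, and 8 immune), 1 Leydig and 1 peritubular or endothelial marker had both, and 1 Leydig marker had H3K4me3 only. The H3K4me3 fold of Fshr, the receptor of follicle-stimulating hormone, was 0 in all 4 libraries. Of 10 spermatogonium markers, 3 were members, 5 had both marks, and 2 had H3K4me3 only. Gfra1, the receptor subunit of stem spermatogonia, had H3K27me3 folds of 103 and 44.9 in KO and 87.2 and 81.5 in WT. Zbtb16 had 72.0 and 32.3 in KO and 58.4 and 37.6 in WT, and Stra8, which acts at the entry into meiosis, had 14.3 and 3.59 in KO and 19.3 and 6.27 in WT. Of 10 spermatocyte markers, 8 had H3K4me3 only, 2 had neither, and none was a member.

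By level, the members with the highest pooled KO H3K27me3 fold came from varied families. Duox2, a hydrogen peroxide-producing oxidase of thyroid and gut, had 128 and 53.9 in KO and 111 and 94.0 in WT, and its pooled KO fold of 117 was the highest. Its partner Duoxa2, which is needed for its maturation and starts close by in the opposite direction, shares most of that window and had 110. They were followed by Cyp24a1, the vitamin D hydroxylase (110), Igsf5, annotated as 2 overlapping gene records (109 and 107), Sox14 (106), Dusp26 (105), Zbtb7b (105), Ccnd2, cyclin D2 (104), and Fbxo32 (103). At the other end, the 5 lowest were Zfp40 (1.38), Stra6l (1.66), Scoc, Gm14288, and Abhd12b (all 1.93). In WT, these 5 lay between 5.23 and 6.83, near the threshold that chose them.

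H3K27me3 often extended beyond the 2-kb window of a start. In KO, 3539 member starts (94.96%) lay in a run of adjoining 1-kb bins that each had a pooled fold of at least 5, against 88.2% of the promoters with both marks and 24.05% of all starts. There were 3379 runs that held a member, with a median length of 5 kb (interquartile range 3 to 6), and only 11 of them held at least 3 member starts. Runs of at least 10 kb held 316 members (8.48%), 163 of the 1505 promoters with both marks (10.8%), and 2.31% of all starts, and the median run around a start was 5 kb for both classes. The longest were the Hox clusters, with 102 kb over Hoxc, 78 kb over Hoxa, 60 kb over Hoxb, and 57 kb over Hoxd with Evx2. The protocadherin gamma and alpha clusters on chromosome 18 had runs of 51 and 44 kb with 6 members each, in which alternative first exons lie side by side. Runs with 1 member start included 34 kb at Pax6, the eye regulator, 26 kb at Six3, 26 kb at Hand2, and 25 kb at Nkx2-1. Since bins within a run are counted from the same fragments as the windows, run length is a description of the same signal. In all, 212 members had another member start less than 2 kb away, so their windows overlap.

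A gene can have other starts. Of the members, 2006 had another annotated transcript start of the same gene more than 2 kb away, and at 413 of them (20.6%) such a start had a WT H3K4me3 fold of at least 3, against 26.0% of all genes with such a start. In KO the number was 423 of the 2006 members, against 2904 of all 11270 genes with such a start. For these genes, the member window is not the start with H3K4me3.

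H3K9me3 at the members was highest where their H3K27me3 was highest. When members were ranked by pooled KO H3K27me3 and cut into 5 groups of equal size, the mean H3K9me3 fold was 0.55 in the lowest group and 1.62 in the highest in KO replicate 1, 0.81 and 1.501 in KO replicate 2, 0.53 and 1.61 in WT replicate 1, and 0.75 and 1.28 in WT replicate 2. The highest group was above the lowest in all 4 libraries. The mean of the lowest group was also above that of the next one in all 4, and the lowest group held the zinc finger starts with high H3K9me3. Its median pooled fold was not above that of the next group, at 0.18 against 0.36 in WT and 0.34 in both groups in KO. Across members, the WT H3K9me3 fold and the KO H3K27me3 fold had a Spearman's rho of 0.641 (Pearson's r of 0.521 on the log2 scale with 0.5 added), a description over promoters that share window size, mappability, and base composition. The ratio of observed to expected CG had a median of 0.35 in the lowest group and 0.56 in the highest, and GC content 51.0% and 56.2%. The mean IgG fold was 0.58 in the lowest group and 0.82 in the highest. The part of background or of base composition in the H3K9me3 order was not tested.

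**Figure D4:**
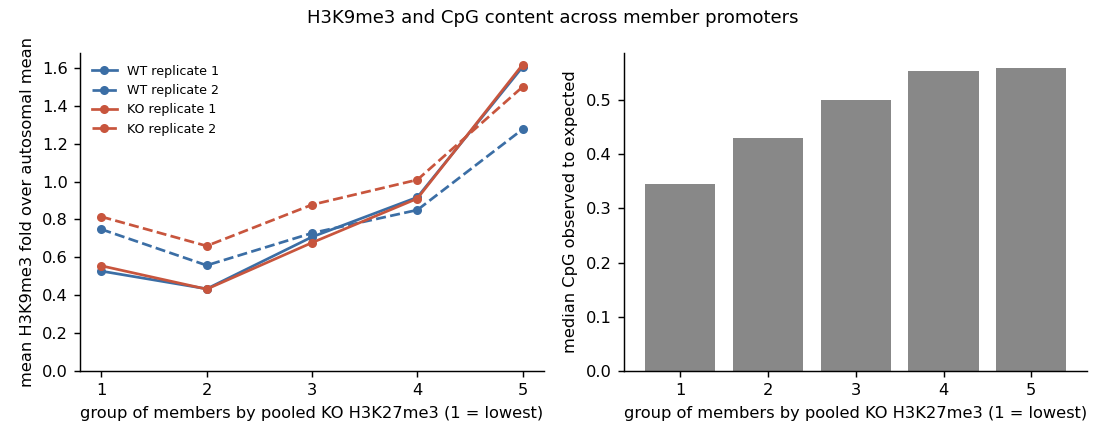
Left, mean H3K9me3 fold over the autosomal mean in each of 5 equal groups of the 3727 members, ordered by pooled KO H3K27me3, with 1 line per library. Right, median ratio of observed to expected CG in the 2-kb windows of the same groups. All 4 libraries are highest in the last group, and the CG ratio goes from 0.35 to 0.56.

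An H3K9me3 fold of at least 1 over the 4 libraries was found at 1026 members (27.5%), against 12.3% of all windows, and a fold of at least 3 at 67 members (1.80%), against 3.54%. Among promoters with both marks, these shares were 18.9% and 4.25%. For the difference between KO and WT in H3K9me3, which the rule did not use, 1355 of 3727 members held at least 10 fragments. None of them, and none of all 3206 windows tested (0%), passed an adjusted p of 0.05 by limma-voom or limma-trend. At an unadjusted p under 0.05, limma-voom gave 51 windows, 8 of them members. With limma-trend there were 112 windows, and with limma-voom and the replicate number as a block 178. The median difference was 0.13 on the log2 scale at the members that were tested and 0.09 over all windows. Summed over all member windows with the high-background bins kept, the H3K9me3 fold was 0.91 ± 0.09 (SD, n = 2) in KO and 0.84 ± 0.0036 (SD, n = 2) in WT, a difference of 0.070 (exact two-sided permutation test, p = 0.3333, the smallest that 2 against 2 can give). KO was above WT by 0.0010 in pair 1 and by 0.14 in pair 2. Counting every deposited fragment turned the difference to -0.12, and without the high-background bins it was 0.13 (exact p = 0.6667).

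For H3K27me3 and H3K4me3, the same fits also called no window of 6491 and 11948 (0%), and without the filter 1 window, no member, was called for H3K27me3. All 3727 members were tested for H3K27me3 and 644 for H3K4me3. Since WT values of these marks chose the members, nothing is read from these counts. At an unadjusted p under 0.05, there were 148 windows for H3K27me3 and 375 for H3K4me3. Without H3K27me3 KO replicate 1, 15 of 5631 windows were called for H3K27me3, all lower in KO and 10 of them members, from which nothing is read either.

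The fragments released at the members were mostly of nucleosome size. In the H3K27me3 libraries, fragments of at least 150 bp made up 86.5% and 78.2% in KO and 90.4% and 86.6% in WT (replicates 1 and 2), and the median length was between 184 and 195 bp. A second peak of dinucleosome size was visible in the length distribution, and fragments of 270 to 700 bp were 12.4% to 19.6%. Small fragments of at most 120 bp, which are thought to come from partly unwrapped or smaller particles, made up 12.4% (95% Wilson interval 12.3 to 12.5) and 19.6% (19.2 to 19.9) in KO and 8.002% (7.91 to 8.10) and 11.2% (10.8 to 11.7) in WT. These intervals cover counting error only. The same share in the H3K9me3 libraries was 11.1% and 21.4% in KO and 7.43% and 17.2% in WT, and in the H3K4me3 libraries 26.4% and 28.7% in KO and 19% and 17.0% in WT. In the IgG libraries, only 253 to 574 fragments lay in the member windows, and 41.3% to 59.3% of them were small.

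**Figure D5:**
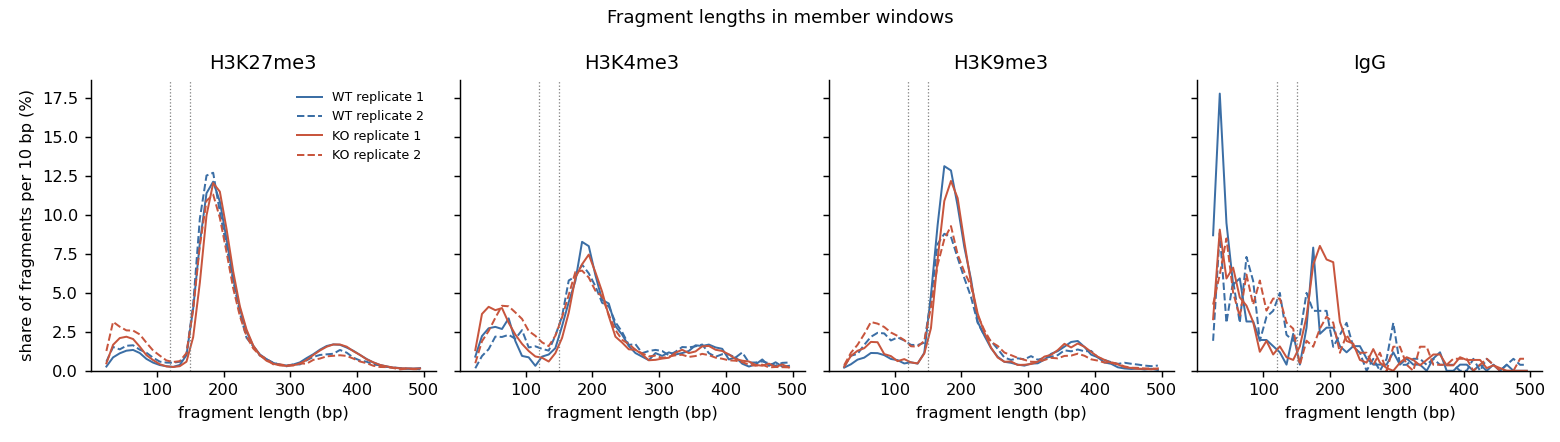
Share of fragments per 10 bp of length in the member windows of each library, up to 499 bp, with dotted lines at the limits of small (at most 120 bp) and large (at least 150 bp) fragments. The 4 H3K27me3 libraries are highest at 180 to 189 bp with a second, lower peak near dinucleosome size, and the IgG libraries are highest between 30 and 49 bp.

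The log2 ratio of small to large H3K27me3 fragments at the members was -2.80 and -1.999 in KO and -3.50 and -2.95 in WT. The genotypes did not overlap, and KO exceeded WT by 0.70 in pair 1 and 0.95 in pair 2, with a mean difference of 0.82 (exact two-sided permutation test, p = 0.3333, the smallest this design can give). With every deposited fragment counted, the mean difference was 0.96, but the genotypes overlapped (exact two-sided permutation test, p = 0.667). For H3K4me3, the difference was 0.80 (0.60 and 1.004 in the pairs, exact p = 0.3333), and for H3K9me3 it was 0.51 (0.64 and 0.39, exact p = 0.6667), with genotypes that overlapped. For IgG, the pairs went in opposite directions (-1.12 and 0.46), with a mean of -0.33 (exact p = 0.6667). Over all autosomal IgG fragments, KO was above WT in both pairs (0.39 and 0.47), and the genotypes did not overlap (exact p = 0.3333). A difference in H3K27me3 in the same direction was found outside the members. Over all autosomal fragments, it was 0.67 and 0.71 in the 2 pairs, and at promoters with both marks 0.62 and 0.59. With the high-background bins left out, the KO minus WT difference over all autosomal fragments was 0.69 and 0.87 in the 2 pairs, and the members exceeded it by 0.01 and 0.07, a difference that was not tested. Promoters with both marks then had 0.73 and 0.90. The other marks also differed in this direction outside the members. With the bins kept, the difference over all autosomal fragments was 0.86 for H3K4me3 (0.76 and 0.97 in the pairs). For H3K9me3 it was 0.47 (0.52 and 0.43). With the bins left out, members minus autosomes was -0.18 and 0.03 for H3K4me3 and 0.01 and -0.17 for H3K9me3, which was not tested.

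Within each H3K27me3 library, the members had fewer small fragments than promoters with both marks. The difference in the log2 ratio was -0.51 and -0.33 in KO and -0.58 and -0.69 in WT, with a mean of -0.53 ± 0.15 (SD, n = 4 libraries, for which the exact two-sided sign-flip test gave the smallest p that 4 libraries allow, above 0.05). With the high-background bins left out it was -0.40, -0.16, -0.38, and -0.21 in the same order, with a mean of -0.29 ± 0.12 (SD) and the same p. Against promoters with neither mark, the difference was -1.03 ± 0.51, and against promoters with H3K4me3 only it was -1.87 ± 0.34 (SD, n = 4, with the same p for both). Among the members, the highest of the 5 groups by KO H3K27me3 had fewer small fragments than the lowest, with a difference in the log2 ratio of -0.28 ± 0.17 for H3K27me3 and -1.82 ± 0.32 for H3K9me3 (SD, n = 4). Both of these differences had the same sign in all 4 libraries. The same difference was -0.20 ± 0.30 for H3K4me3 and -0.23 ± 0.79 for IgG (SD, n = 4), each with 1 library of the opposite sign. The part of background, in which small fragments had the larger share given above for IgG, was not tested.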

How the data were processed

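AutoCUT&RUN libraries for H3K4me3, H3K27me3, H3K9me3, and IgG from sorted haploid spermatids were compared between 2 WT and 2 H2A.B KO males. The authors mapped paired-end reads to mm10 using Bowtie2 (version 2.3.4.3 in the submitters' processing notes) and deposited, for each library, 1 unscaled list of fragments with chromosome, start, end, and length. Although the methods describe removal of PCR duplicates, 33.6% to 83.4% of the deposited fragments were further copies with the same coordinates, so each combination of coordinates was counted once per library.

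Fragments of 24 to 700 bp were assigned by midpoint to windows and scaled to the autosomal total. Windows with at least 10 fragments were compared with limma-voom (limma 3.58.1 in R 4.3.3), with Benjamini-Hochberg adjustment over all windows. Values summed per library were compared with exact permutation tests (Python 3.11.15). In simulated data with 200 windows changed 4-fold, limma-voom found 100 for H3K27me3 over H3K4me3 and 119 over H3K9me3, with 6 and 3 false calls. For KO against WT it found 168 (H3K9me3), 157 (H3K27me3), and 144 (H3K4me3), with 4, 20, and 7 false calls. Beyond counting error, simulated replicates spread by 0.3 of the mean with no pair effect, and unchanged windows had equal levels in all groups. Changed windows were drawn from those well above the minimum of 10 fragments. The counts found therefore do not carry over to windows near that minimum or to a larger spread. Libraries of the same number are taken as 1 sibling pair, and they also share the number codes of their titles. Their deviations from the group means correlated across windows (r of 0.298 for H3K27me3, 0.234 for H3K4me3, and 0.171 for H3K9me3). These correlations cannot tell the sibling pair from whatever the codes stand for. The members and gene lists were chosen with earlier results of these data known. Named genes were those with the highest or lowest KO H3K27me3, the highest H3K9me3, the smallest adjusted p, the top 3 of each list, marker genes, and those at the thresholds. Values of some of these genes are not reported here. Gene starts and exons came from GENCODE vM21, and sequence from the RefSeq copy of the same assembly.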

Additional observations from a re-analysis of the deposited data

How the results depend on the processing

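The number of members stayed between 3345 and 4049 under other windows, thresholds, fragment counting, and single replicates, and was 3636 when the rule was applied to the KO libraries, 3391 of them shared. Without replicate 1, the share of members meeting the rule in KO was 74.4%, and without replicate 2 it was 90.4%, in place of 91.0%. In those KO libraries, 22.4% and 24.9% of all windows met the H3K27me3 threshold, so no larger share could meet the rule. H3K27me3 over H3K9me3 in KO fell to 763 members under quantile normalization, and the cause was not tested. Leaving out a library left 1 in its group, so only the median log2 differences of the filtered fits are given, as a description. For H3K27me3 over H3K4me3, they were 4.72 to 5.32 at the members tested and -3.86 to -3.00 over all windows. Over H3K9me3, they were 4.74 to 5.52 at members and 1.47 to 2.41 over all windows. Without H3K27me3 KO replicate 1, only 2892 members were tested in these fits. Without H3K27me3 KO replicate 1, 15 of 5631 windows, 10 of them members, were called lower in KO for H3K27me3, and no member was called under the other alternatives. Leaving out a replicate gave a small-to-large difference of 0.60 to 1.004 for H3K4me3, and of -1.12 to 0.46 for IgG, which counting every deposited fragment reversed to 0.51. The H3K9me3 fold difference ran from 0.0010 to 0.14 without a replicate and reversed to -0.12 with every deposited fragment. The IgG fold at members was 0.88 with every deposited fragment and 0.80 without the high-background bins, the latter chosen after seeing the data, as were the rule applied to KO and windows chosen by KO. With the replicate block (sibling pairs), 3512 and 3669 of the 3720 members that met the filter had H3K27me3 above H3K4me3 and H3K9me3 in KO, where 4294 and 6361 of 16065 windows did (a description, like the other filtered counts), the KO minus WT fits again called 0 members, and the size differences are 0.82, 0.51, 0.80, and -0.33 by construction, since a block of 1 KO and 1 WT library cannot change their mean, and 2 pairs allow no exact p below 0.5. Window counts are limited by H3K27me3 WT replicate 2 and by IgG, with 0.563 fragments expected per window over 4 IgG libraries.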
